A study of Mus musculus with 47 samples.

Results

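The poised H3K4me1 peaks of mouse liver were described here, meaning short stretches that carried the enhancer mark H3K4me1 inside broad regions of the repressive mark H3K27me3 and lacked the active mark H3K27ac. Of 68838 autosomal peaks in the control male H3K4me1 list, 27650 overlapped a peak in each of the other 3 H3K4me1 lists by at least 1 bp. Of these, 6741 lay fully inside a region of both control H3K27me3 lists. After removal of peaks that touched a control H3K27ac peak of either sex, 3848 remained (5.59% of the list), and these are called members below. The members were thus selected on measured values of the H3K4me1 lists and the control lists, so their marks in control liver are a description and not a finding. The marks H3K27me3 and H3K27ac in E1/E2-KO liver were not used in the choice.

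These 3 histone marks were measured by chromatin immunoprecipitation and sequencing (ChIP-seq) in livers of 7 week old mice. Control mice carried floxed Ezh2 alleles (Ezh2 f/f). E1/E2-KO mice (Ezh1-/-, EZH2f/f, AC+) carried the same floxed alleles, lacked Ezh1 in every cell and lost Ezh2 through Cre recombinase driven by the albumin promoter, which is active in hepatocytes. Other liver cells of E1/E2-KO mice thus kept Ezh2. The groups were male and female livers of each genotype, with 4 livers for each mark and group except 3 for E1/E2-KO female H3K4me1, 47 samples in all. E1/E2-KO is shortened to KO below. Reads of each group were pooled before peaks were called, so each of the 12 lists is 1 observation without replicates and these lists alone allow no test between groups. Intervals below (95%, Wilson, or Newcombe for a difference) cover counting error alone and take nearby peaks to be independent.

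H3K4me1 marks enhancers before and during their use, and H3K27ac is added when an enhancer or promoter is active. H3K27me3 is written by polycomb repressive complex 2, whose catalytic subunit is either Ezh1 or Ezh2. Genes for developmental transcription factors are the classic targets of this complex, and their promoters are often rich in CpG dinucleotides. An enhancer that carries H3K4me1 with H3K27me3 and no H3K27ac is commonly called poised, and one with H3K4me1 alone primed. In whole liver the marks of such an element may lie in the same cells or in different cells, and these data cannot tell these apart. Fewer cells with a mark and less of the mark per cell cannot be told apart either.

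The sequences of 6 members illustrate how members differ in CpG dinucleotides, which are in capitals. All are from the plus strand of mm9, the build of the lists. The first 4 members had no H3K27me3 region and an H3K27ac peak in both KO lists, and are named for the nearest protein-coding start. They are 4 of the 5 with the widest H3K27ac peaks, and the member nearest to Rbbp8 is not shown. The Mysm1 member (chr4:94654126-94654425) lay between genes, 8485 bp upstream of Mysm1, a histone H2A deubiquitinase gene. The Sfswap member (chr5:129804926-129805225) lay between genes, 202030 bp from the nearest start. The Slc38a1 member (chr15:96452180-96452479) lay in an intron of Slc38a1, an amino acid transporter gene, and the Limch1 member (chr5:67415970-67416269) in an intron of Limch1. The Tesc member (chr5:118478471-118478770) was the widest of those that kept H3K27me3 and lacked H3K27ac in both KO lists. The peak overlapped an exon, and its middle lay 869 bp downstream of the start of Tesc, a calcium-binding protein gene. The Cpne7 member (chr8:125641147-125641277) was the widest in the gene model with most members. It is shown as the longest stretch of its middle 300 bases without an annotated untranslated region.
Mysm1 member: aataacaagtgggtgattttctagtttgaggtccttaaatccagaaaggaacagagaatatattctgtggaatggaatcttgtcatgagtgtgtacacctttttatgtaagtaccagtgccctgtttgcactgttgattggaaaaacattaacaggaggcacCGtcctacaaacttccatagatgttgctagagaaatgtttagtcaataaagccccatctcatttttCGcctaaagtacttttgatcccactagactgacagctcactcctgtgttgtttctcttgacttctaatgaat
Sfswap member: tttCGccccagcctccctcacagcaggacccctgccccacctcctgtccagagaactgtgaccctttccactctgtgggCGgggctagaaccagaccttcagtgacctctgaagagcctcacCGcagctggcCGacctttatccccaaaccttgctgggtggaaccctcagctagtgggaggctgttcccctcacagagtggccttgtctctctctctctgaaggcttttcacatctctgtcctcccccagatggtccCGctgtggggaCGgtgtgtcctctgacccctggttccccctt
Slc38a1 member: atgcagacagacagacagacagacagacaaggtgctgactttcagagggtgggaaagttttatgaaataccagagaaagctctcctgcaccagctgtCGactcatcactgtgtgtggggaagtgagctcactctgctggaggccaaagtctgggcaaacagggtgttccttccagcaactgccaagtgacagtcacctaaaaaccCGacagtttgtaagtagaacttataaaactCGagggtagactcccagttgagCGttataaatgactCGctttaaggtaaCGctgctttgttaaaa
Limch1 member: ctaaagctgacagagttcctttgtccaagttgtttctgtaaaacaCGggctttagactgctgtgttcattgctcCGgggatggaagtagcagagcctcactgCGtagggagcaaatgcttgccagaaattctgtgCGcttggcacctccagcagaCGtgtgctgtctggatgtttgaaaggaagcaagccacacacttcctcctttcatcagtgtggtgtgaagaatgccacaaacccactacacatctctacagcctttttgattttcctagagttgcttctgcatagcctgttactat
Tesc member: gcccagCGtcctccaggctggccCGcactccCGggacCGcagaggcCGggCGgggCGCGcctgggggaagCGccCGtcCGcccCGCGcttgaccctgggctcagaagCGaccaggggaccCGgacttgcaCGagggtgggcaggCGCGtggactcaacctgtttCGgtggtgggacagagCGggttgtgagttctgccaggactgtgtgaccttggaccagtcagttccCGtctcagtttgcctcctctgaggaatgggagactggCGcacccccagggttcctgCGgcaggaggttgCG
Cpne7 member: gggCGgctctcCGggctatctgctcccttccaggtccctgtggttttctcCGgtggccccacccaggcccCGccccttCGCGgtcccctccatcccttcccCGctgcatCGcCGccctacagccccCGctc
The first 4 held between 2 and 6 CpG in 300 bases. The Tesc member held 24 in 300 bases with a GC content of 69.3%, and the Cpne7 member 10 in 131 bases with a GC content of 72.5%. The first 4 also lay farther from a start, so these sequences do not separate CpG content from place.

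Of peaks close to the limits of the rule, 77 peaks met every other part of the rule but straddled the border of a control H3K27me3 region. The rule dropped 2893 peaks for a control H3K27ac peak, of which 1512 touched a peak of the control female list only and 108 of the control male list only. Among members, 395 had a control H3K27ac peak within 1 kb and 145 within 200 bp. In at least 1 other H3K4me1 list, 59 members were covered over less than 10% of their length.

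Not all members were distant from genes. Within 1 kb of a protein-coding start lay 1182 of 3848 members (30.7%, interval 29.3 to 32.2), and the other 2666 lay farther away and are called distal below. This share lay between the 22.0% of all peaks in the 4 H3K4me1 lists and the 48.4% of peaks inside control H3K27me3 with H3K27ac in both controls. Of all members, 19.0% were distal and in introns, 8.60% distal and overlapping an exon, and 41.7% distal and between genes. Primed peaks, defined as the 5524 peaks in all 4 H3K4me1 lists that touched neither a control H3K27me3 region nor a control H3K27ac peak, differed in place. Of primed peaks 9.03% (8.31 to 9.82) lay within 1 kb of a start, and 52.8% were distal and in introns. The median member was 587 bp wide, beside 567 bp for primed peaks and 436 bp for the whole control male list.

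**Figure D1:**
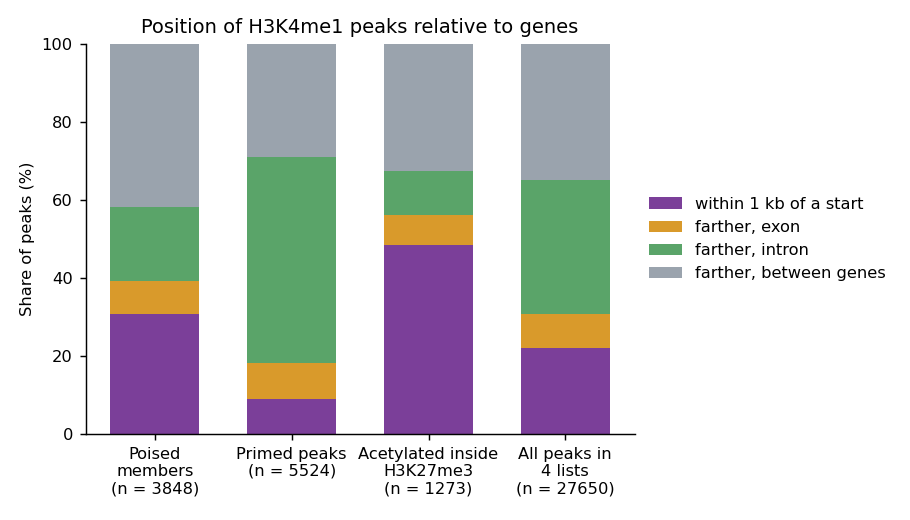
Share of peaks (%) by place for poised members, primed peaks, H3K4me1 peaks inside control H3K27me3 with H3K27ac in both controls, and all peaks in the 4 H3K4me1 lists. Members stood within 1 kb of a protein-coding start in 30.7% of cases and primed peaks in 9.03%.

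The members were also unlike primed peaks in sequence, which the rule did not use. A peak was called CpG-rich when its middle 300 bases had a GC content of at least 50% and an observed to expected CpG ratio of at least 0.6. Of members, 1248 (32.4%, interval 31.0 to 33.9) were CpG-rich, beside 53 of 5524 primed peaks (0.959%, 0.734 to 1.25) and 8.60% of all peaks in the 4 H3K4me1 lists. Of the 1273 peaks inside control H3K27me3 that carried H3K27ac in both controls, 352 (27.7%, 25.3 to 30.2) were CpG-rich. Within 1 kb of a start 70.6% of members were CpG-rich, and of primed peaks there 5.41%. Distal members were CpG-rich in 15.5% of cases (14.2 to 17.0) and distal primed peaks in 0.517% (0.353 to 0.757).

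Members fell into 2772 of the 16806 autosomal control male H3K27me3 regions (16.5%), of which 2049 held 1 member, 699 held 2 to 4 and 24 held 5 or more, up to 14. The median width of a region with a member was 58800 bp, beside 27600 bp for a region without one, a difference that follows in part from the rule, since a wide region has more room for a peak.

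An H3K27me3 region was still listed at most members in KO liver. The lists give no signal, so such a region may hold less of the mark than in control liver. In KO male liver 519 members (13.5%, interval 12.4 to 14.6) overlapped no H3K27me3 region, 3312 lay fully inside a region and 17 lay partly inside. The background, all control male H3K4me1 peaks inside a control male region, stood at 23.8%. In KO female liver 913 members (23.7%, 22.4 to 25.1) overlapped no region, beside a background of 31.1% for peaks inside a control female region. Both shares of members lay below the background. Against the 6741 peaks in all 4 H3K4me1 lists and inside both control regions, acetylated or not, the gap was smaller, as 14.7% of these had no region in male and 27.1% in female liver. The shares of members were close to those of the regions themselves, since 14.4% of the bases inside both control lists lay outside the KO male regions and 22.2% outside the KO female regions.

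Both KO lists agreed on many of these members. H3K27me3 was missing from 438 members in both lists (11.4%), from 81 in the male list only and from 475 in the female list only, and was present in both lists at 2854 (74.2%). Of the 519 members missing in male liver, 84.4% were also missing in female liver. Of the 913 missing in female liver, 48.0% were also missing in male liver. The KO female list covered less of the autosomes (633 Mb) than the KO male list (750 Mb), as did the control female list (630.1 Mb) beside the control male list (765 Mb), and the part of this in the difference between the sexes was not tested. The missing members were usually far from any remaining region, at a median of 17141 bp in male and 21063 bp in female liver.

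The members that kept H3K27me3 differed in place and sequence from those that did not. Within 1 kb of a start 4.06% of members (3.08 to 5.34) had no region in KO male liver, beside 17.7% of distal members (16.3 to 19.2), a difference of 13.6 percentage points (11.7 to 15.4). In KO female liver the shares were 7.11% (5.78 to 8.71) and 31.1% (29.4 to 32.9), a difference of 24.0 points (21.6 to 26.2). The split by CpG content was wider. Of CpG-rich members 1.68% (1.1 to 2.56) had no region in KO male liver and 4.09% (3.12 to 5.33) in female liver. Of the other 2600 members the shares were 19.2% (17.7 to 20.7) and 33.2% (31.4 to 35.0).

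The split by CpG content was present on both sides of the 1 kb limit. Of the 414 distal CpG-rich members, 6 (1.45%) had no region in male and 24 (5.80%) in female liver, beside 20.6% and 35.7% of the 2252 distal members that were not CpG-rich. Within 1 kb of a start the shares were 1.80% and 3.24% for 834 CpG-rich members and 9.48% and 16.4% for 348 others. The share without a region fell step by step with the number of CpG in the middle 300 bases. With 0 to 2 CpG it was 30.3% in male and 45.7% in female liver (591 members), with 6 to 11 CpG 14.7% and 26.7% (845 members), and with 21 or more 0.817% and 2.55% (979 members). The same split held, with higher shares, at H3K4me1 peaks inside the same-sex control region that were not members. In male liver 10.3% of their CpG-rich and 29.6% of their other peaks had no region, and in female liver 18.5% and 37.3%.

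**Figure D2:**
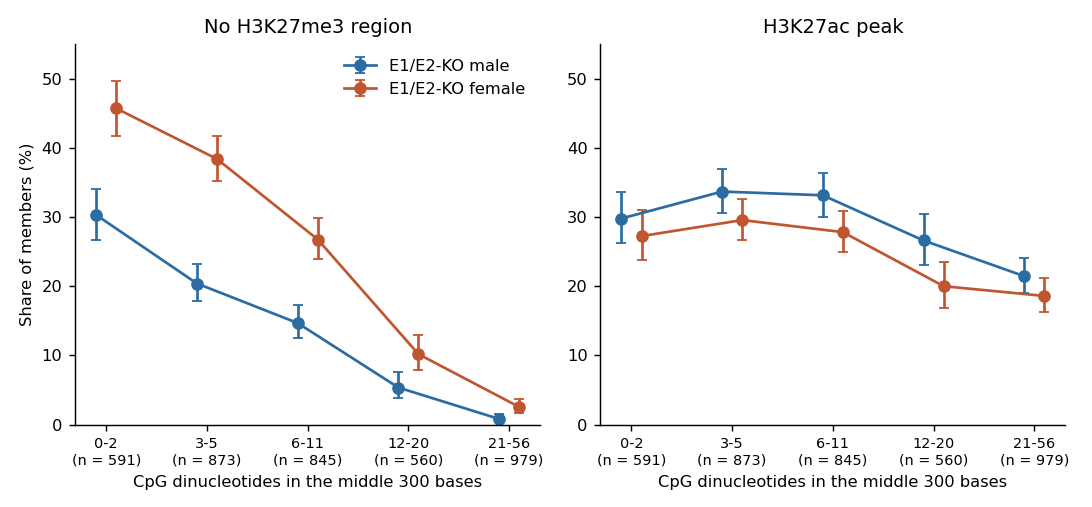
Share of members (%) with no H3K27me3 region (left) and with an H3K27ac peak (right) in KO male and female liver, by the number of CpG in the middle 300 bases, with 95% Wilson intervals. The share without H3K27me3 fell from 30.3% to 0.817% in male and from 45.7% to 2.55% in female liver.

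Members also differed by the width of their control region and the distance from its border. Members in control male regions under 20 kb had no region in KO male liver in 24.5% of cases, and members in regions of 100 kb or more in 9.26%. For control female regions and KO female liver these were 46.2% and 16.4%. Members under 2 kb from the border of their control region had none in 29.3% of cases in male and 54.9% in female liver, and members 20 kb or more from it in 9.87% and 14.8%. Within each class of region width, CpG-rich members still had lower shares. In regions of 20 to 50 kb, 2.83% of CpG-rich and 25.9% of other members had no region in male liver, and 3.09% and 37.5% in female liver. In female regions under 20 kb, 17.9% of CpG-rich members (12.3 to 25.3) had no region, the highest share of CpG-rich members in any width class.

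**Figure D3:**
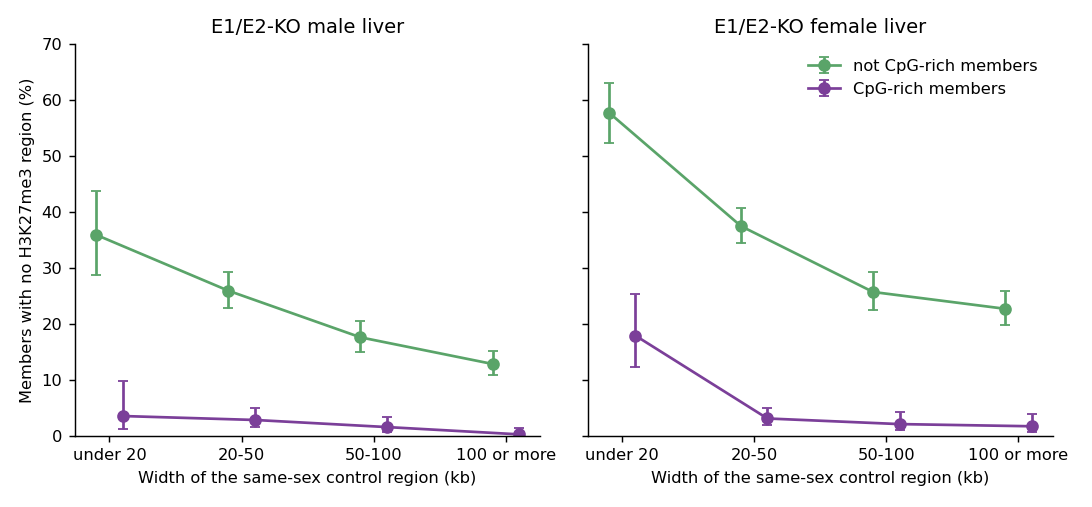
Share of members (%) with no H3K27me3 region in KO male and female liver by the width of the control region of the same sex, for CpG-rich and other members, with 95% Wilson intervals. In each width class CpG-rich members lay below the others, from 3.53% beside 35.9% in the narrowest male class to 0.257% beside 12.8% in the widest.

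Outcomes were also counted by region. Of the 723 control male regions with 2 or more members, 600 had H3K27me3 at all their members in KO male liver, 52 at none and 71 (9.82%) at some. Control male regions with a member were missing whole from the KO male list in 7.36% of cases and regions without one in 28.3%, but the latter were narrower (above).

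A minority of the members carried H3K27ac in KO liver. An H3K27ac peak overlapped 1109 members (28.8%, interval 27.4 to 30.3) in KO male liver. The background, control male H3K4me1 peaks without control male H3K27ac, was 32.8%. In KO female liver it was 948 members (24.6%, 23.3 to 26.0), beside a background of 14.0% for peaks without control female H3K27ac. Members had to lack H3K27ac in both controls, whereas background peaks had to lack it only in the control of the same sex and did not have to be in all 4 H3K4me1 lists. Of the 10456 peaks that met both conditions, members among them, 28.3% (27.5 to 29.2) carried it in male and 22.2% (21.4 to 23.0) in female liver, close to the members' shares. Primed peaks, which lacked it in both as well, carried H3K27ac in 27% of cases (25.8 to 28.2) in male and 19.1% in female liver. Members exceeded them by 1.85 points (0.00491 to 3.70) in male and 5.54 points (3.83 to 7.26) in female liver. At like distance from a start, the male excess was 6.36 points (2.18 to 10.2) within 1 kb and 3.54 (1.40 to 5.71) beyond. In female liver these were 9.37 (5.61 to 12.8) and 6.62 points (4.63 to 8.64). By distance to the nearest control H3K27ac peak the male order was not constant. Within 1 kb of one, 37.7% of members and 23.5% of primed peaks carried H3K27ac in male liver. At 5 to 20 kb these were 33.5% and 33.8%, and beyond 20 kb, where 1987 members lay, 24.5% and 28.7%. In female liver members were higher at each distance, from 30.1% beside 15.3% within 1 kb to 21.7% beside 20.7% beyond 20 kb.

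The male value was also taken from a shortened list. The control male H3K27ac list held 29359 peaks and the KO male list 55930, whereas the female lists held 49702 and 51253. With the KO male list kept to its 29359 widest peaks, 10.1% of members (9.17 to 11.1) and 8.80% of primed peaks (8.08 to 9.57) carried H3K27ac. This list lacks all peaks under 426 bp, so number and width of peaks changed together and their parts cannot be told apart. A shorter list through lower sequencing depth and one through fewer acetylated sites cannot be told apart, as the lists give no depth. With the KO female list kept to its 49702 widest peaks, the share of members was 23.5%.

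The H3K27ac peaks at members were partial. The widest peak over an acetylated member had a median width of 354 bp in male and 318 bp in female liver, beside 338 and 290 bp over acetylated primed peaks and 445 and 404 bp for all autosomal peaks of these lists. A median of 47.8% of such a member was covered in male and 44.1% in female liver. H3K27ac was more frequent at wide members. It overlapped 20.1% of members under 395 bp wide and 41.2% of members of 819 bp or more in male liver, and 17.7% and 31.8% in female liver. Primed peaks within the same width limits gave 20.3% and 37.2% in male and 14.8% and 27.1% in female liver. Distal members carried H3K27ac more often than members within 1 kb of a start, by 8.99 points (5.97 to 11.9) in male and 6.13 points (3.23 to 8.91) in female liver. Of CpG-rich members 22.5% and 19.0% carried it in male and female liver, and of the others 31.8% and 27.3%.

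The sexes shared part of these peaks. H3K27ac was present in both KO lists at 600 members (15.6%) and in neither at 2391 (62.1%). It was in the male list only at 509 (13.2%) and in the female list only at 348 (9.04%). Of primed peaks 10.95% had H3K27ac in both KO lists and 64.9% in neither. For primed peaks 16.0% had it in the male list only and 8.15% in the female list only.

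H3K27ac was not confined to members without H3K27me3. In KO male liver it was present at 32.8% of members without a region (170 of 519) and 28.2% of members with one (939 of 3329), a difference of 4.55 points (0.352 to 8.96). The interval of the male difference included 0 under 6 of 12 alternatives, among them the start from the control female H3K4me1 list (3.97 points, -0.271 to 8.43) and the widest KO male H3K27ac peaks only (1.04 points, -1.59 to 4.18). Counted by control male region, an acetylated member was in 128 of 362 regions whose members all lacked H3K27me3 (35.4%) and in 789 of 2339 whose members all kept it (33.7%). In KO female liver the shares were 31.0% (283 of 913) and 22.7% (665 of 2935), a difference of 8.34 points (5.04 to 11.8). Among distal members alone the difference was 1.35 points (-3.18 to 6.11) in male and 6.33 points (2.67 to 10.1) in female liver. Primed peaks had no control H3K27me3 region, and those with a region in KO male liver carried H3K27ac more often (without minus with a region -7.28 points, interval -10.7 to -3.94). In female liver that difference was -3.29 points (-8.13 to 0.953).

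Combining both marks, the most frequent outcome was the state that the rule fixed in the control lists, an H3K27me3 region and no H3K27ac peak. In the KO lists a member could thus only keep this state, lose H3K27me3 or gain H3K27ac. Of all members 1850 (48.1%) kept H3K27me3 and lacked H3K27ac in both KO lists, 411 (10.7%) had both marks in both lists, and 84 (2.18%, interval 1.77 to 2.69) lacked H3K27me3 and carried H3K27ac in both. Within 1 kb of a start 770 members (65.1%) were of the first kind and 7 (0.592%) of the last. Among distal members 1080 (40.5%) were of the first kind and 77 (2.89%) of the last.

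**Figure D4:**
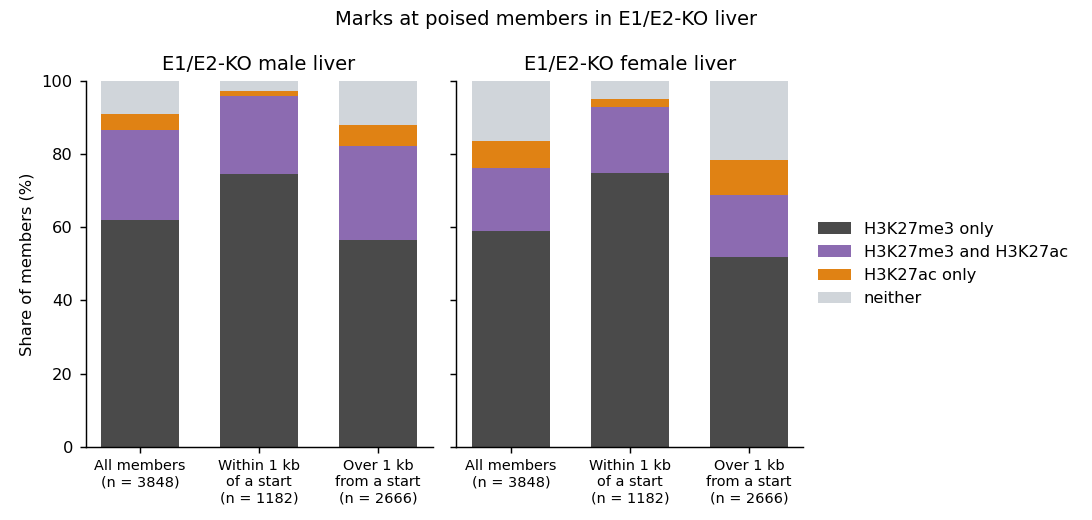
Share of members (%) with each combination of H3K27me3 and H3K27ac in KO male and female liver, for all members and by distance from a protein-coding start. H3K27me3 alone was the largest class in every bar, 62.1% of all members in male and 59.0% in female liver.

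The 84 members without H3K27me3 and with H3K27ac in both KO lists lay nearest to 81 genes. In order of the width of their H3K27ac peaks, by the narrower of the male and female peak, the 12 nearest genes were Mysm1, Sfswap, Slc38a1, Rbbp8, Limch1, Esrrg, Ptp4a3, Atp6v1b2, Ier3, Bcat1, 2410004A20Rik and Actbl2. None of these 12 members was CpG-rich. The distance to the nearest start ranged from 4588 bp (Ptp4a3) to 281373 bp (Rbbp8), so nearness is a label here and not a link to a target.

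The Mysm1 member (chr4:94653881-94654670) lay inside control regions of 54800 bp in male and 44800 bp in female liver. Its H3K27ac peak was 802 bp wide in KO male and 687 bp in KO female liver. The Sfswap member (chr5:129804634-129805518) had H3K27ac peaks of 1054 and 667 bp. The Slc38a1 member (chr15:96451933-96452726) had H3K27ac peaks of 590 and 820 bp, 20063 bp downstream of the start.

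The Ptp4a3 member (chr15:73582918-73583169) lay in an intron of Ptp4a3, a protein tyrosine phosphatase gene, with H3K27ac peaks of 779 and 487 bp. The whole Ptp4a3 gene was inside H3K27me3 in both controls, and 21.4% of it in KO male and 1.20% in KO female liver. The Esrrg member (chr1:189308969-189309262) lay between genes, 123554 bp upstream of Esrrg, which encodes an orphan nuclear receptor. H3K27me3 covered 65.7% of Esrrg in control male, 26.6% in control female, 28.2% in KO male and 7.74% in KO female liver. The Ier3 member (chr17:35920837-35921397) lay 37512 bp upstream of Ier3, an immediate early response gene, which was 78.4% and 100% inside control male and female regions and 0% inside either KO list. The gene nearest to a member could also keep the mark. Bcat1, a branched-chain amino acid aminotransferase gene 64863 bp from its member (chr6:144916016-144916984), was 79.6% and 90.8% inside the control lists and 95.1% and 95.6% inside the KO lists. Within 10 kb of Ptp4a3 lay 1 H3K27ac peak in control male and 7 in control female, KO male and KO female liver. In the same order of groups the counts were 7, 20, 21 and 25 for Esrrg and 3, 6, 6 and 6 for Ier3. For Bcat1 they were 0 in all groups. Control female liver thus had as many as either KO list near Ptp4a3 and Ier3.

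Genes near members were searched within 10 kb of their span. A member lay there for 2764 of 21418 autosomal protein-coding genes (12.9%, interval 12.5 to 13.4). Among the 5593 genes with at least 50% of their length inside both control H3K27me3 lists it was 1884 (33.7%, 32.5 to 34.9). Both shares are given as background below, the second because the rule places members inside such regions. Of all members, 2692 (70%) lay within 10 kb of a gene.

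Developmental regulator genes were well represented. Over 9 families of transcription factor and signal genes, 131 of 312 genes (42.0%, 36.6 to 47.5) had a member nearby. Of the 255 of these genes that lay inside both control H3K27me3 lists, 48.2% had one, beside 33.7% of all such genes. Of the 154 members near the 9 families, 99 were CpG-rich (64.3%, beside 41.7% of members near any gene). In each KO list 4 of the 154 (2.60%) had no H3K27me3 region, beside 10.9% in male and 19.1% in female liver for members near any gene, and 7.05% and 14.0% for members near genes inside both control H3K27me3 lists. H3K27ac was present at 35 (22.7%) in male and 33 (21.4%) in female liver, beside 27.9% and 23.3% of members near any gene.

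Among the families, Hox cluster genes, which set position along the body axis, had 9 members near 19 of 40 genes, and none of the 9 lacked H3K27me3 in either KO list. H3K27ac was present at 4 of the 9 in each KO list. Hoxd12 (chr2:74512986-74515763 on mm9) had 3 of these members within 10 kb, of which 1 carried H3K27ac in each KO list and 3 were CpG-rich. Hoxd12 lay wholly inside H3K27me3 in all 4 groups. Hoxd11, its neighbour, had 3 members and Hoxd13 and Hoxd10 had 2 each, partly the same peaks.

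Homeobox genes outside the Hox clusters had a member in 47 of 98 cases. Irx2 had 4 members, all with H3K27me3 in both KO lists, of which 2 carried H3K27ac in male and 1 in female liver. Msx3 had 3, all CpG-rich, with H3K27me3 and without H3K27ac in both lists. Satb1, a chromatin organiser gene, had 3, of which 1 carried H3K27ac in male and 2 in female liver. Of the 58 members near this family 2 had no H3K27me3 region in male and 2 in female liver.

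Among Sox, T-box and Gata factor genes 14 of 35 had a member. Tbx20 and Tbx15, both T-box factor genes, had 3 each, all with H3K27me3 in both lists. Sox12 had 2, which kept H3K27me3 in KO male and had no region in KO female liver, where the gene itself went from 100% to 0% covered. Gata5 had 2, both with H3K27me3, of which 1 carried H3K27ac in each KO list.

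For bHLH factor genes of neural and muscle lineages the count was 12 of 30, with 3 members each at Neurog2 and Neurod2, factors of nerve cell formation. None of those 6 carried H3K27ac or lacked H3K27me3 in either KO list. Pax genes had a member in 4 of 9 cases. The members at Pax2, 2 in number, both kept H3K27me3, and 1 carried H3K27ac in each list. Forkhead genes had a member in 12 of 39 cases. Foxn1, a factor of thymic epithelium, had 2, both with H3K27me3 in both KO lists, of which 1 carried H3K27ac in male liver only.

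Of the signal genes, Wnt ligand genes had a member in 10 of 19 cases, with 2 each at Wnt16, Wnt10a, Wnt6 and Wnt9b. All 12 members near Wnt genes kept H3K27me3 in both lists, 2 carried H3K27ac in male and 0 in female liver. Fgf ligand genes had a member in 7 of 20 cases, and the 2 members near Fgf14 were the only ones of the family without H3K27me3 in male liver. For Bmp ligand and antagonist genes it was 6 of 22, with 2 members each at Bmp4, Bmp3 and Bmp6. Bmp4, a ligand of mesenchymal development, lay wholly inside H3K27me3 in all 4 groups.

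Among the genes of each developmental family that lay inside both control H3K27me3 lists, the share with a member ranged from 37.5% (Bmp, 6 of 16) to 53.8% (Sox, T-box and Gata, 14 of 26), with 44% for forkhead genes (11 of 25). The background of 33.7% lay below all 9, but most families are small. Counted by the nearest start instead, Hox cluster genes, all inside both control lists, stood at 9 of 40 (22.5%). This was below the 31.9% of all genes inside both control lists. Potassium channel genes had a member in 30 of 93 cases (32.3%, 23.6 to 42.3), collagen genes in 13 of 41, semaphorin, plexin, ephrin and Eph receptor genes in 17 of 49 and cadherin genes in 4 of 23. Among those of their genes inside both control H3K27me3 lists the shares were 39.4% (26 of 66), 39.3% (11 of 28), 47.8% (11 of 23) and 27.3% (3 of 11). Near Col8a1, a collagen VIII gene, lay 3 members, of which 1 had no H3K27me3 region in KO female liver and 1 carried H3K27ac in each KO list. Cytochrome P450 genes of families 2, 3 and 4, many of them expressed in hepatocytes, had a member in 2 of 74 cases (2.70%, 0.744 to 9.33), at Cyp4f39 and Cyp4x1. Of these 74 genes 8 lay inside both control H3K27me3 lists, among them both with a member (25%).

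**Figure D5:**
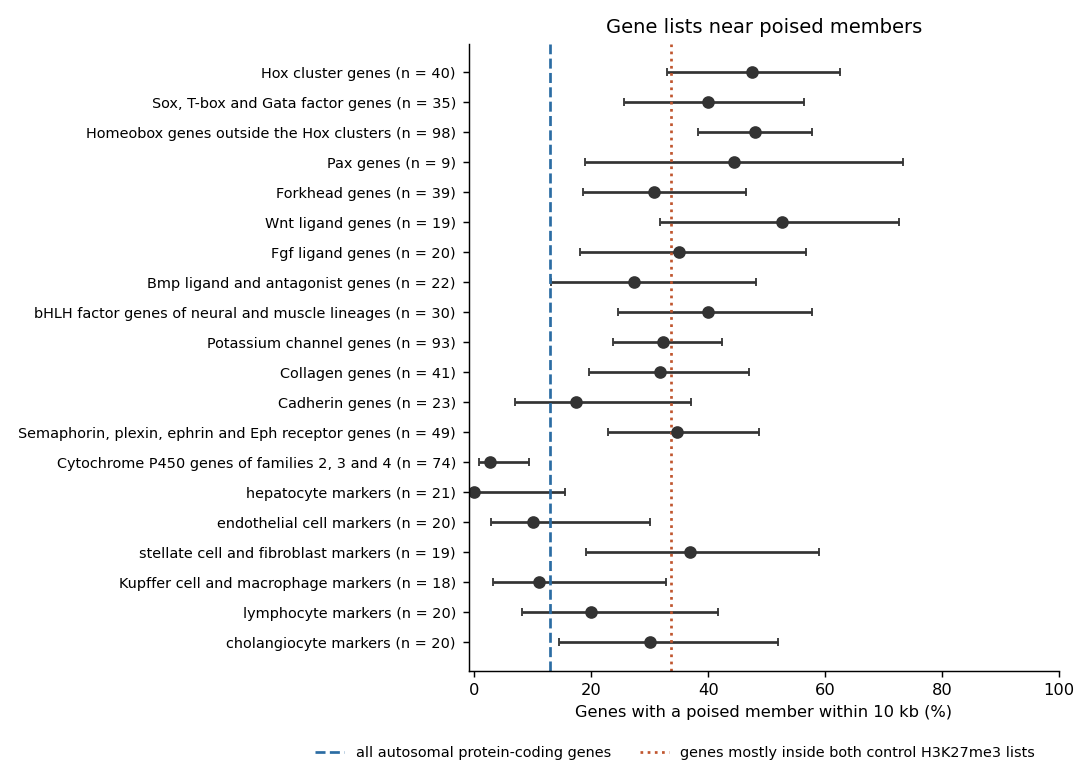
Share of genes (%) in each list with a member within 10 kb, with 95% Wilson intervals, beside all autosomal protein-coding genes (dashed, 12.9%) and genes at least 50% inside both control H3K27me3 lists (dotted, 33.7%). Wnt ligand genes stood highest and hepatocyte markers at 0 of 21.

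Members were also placed against marker genes of liver cell types. No hepatocyte marker gene had a member within 10 kb (0 of 21, upper bound of the interval 15.5%), and 1 of the 21 lay inside both control H3K27me3 lists. Markers of other liver cells had one in 7 of 19 cases for stellate cells and fibroblasts, 6 of 20 for cholangiocytes, 4 of 20 for lymphocytes, 2 of 20 for endothelial cells and 2 of 18 for Kupffer cells and macrophages, beside 12.9% of all genes. Among markers inside both control H3K27me3 lists the counts were 5 of 13, 3 of 13, 4 of 14, 1 of 13 and 1 of 11, beside 33.7% of all such genes. At Stab1, a scavenger receptor gene of sinusoidal endothelium, the 1 member had no H3K27me3 region and an H3K27ac peak in both KO lists. H3K27me3 covered 100% of Stab1 in control male, 39.2% in control female and 0% in KO male and female liver. The other endothelial marker with members was Vwf, which encodes von Willebrand factor. Of its 2 members none lacked H3K27me3 in KO male and 1 in KO female liver, and 1 carried H3K27ac in each. H3K27me3 covered 96.9% and 98.3% of Vwf in control male and female and 100% and 77.7% in KO male and female liver. At Fcgr1, an Fc receptor gene of macrophages, 2 members kept H3K27me3 and carried H3K27ac in both KO lists. Over the 7 members near stellate cell and fibroblast markers none lacked H3K27me3 in either list, and 3 carried H3K27ac in male and 2 in female liver, too few to set apart from the shares of members near any gene. The part of the number of such cells in the H3K27ac at members was not tested.

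By gene, the largest count fell to a very long gene model. Gm20388 had 20 members within 10 kb, but this model spans 4434882 bp of chromosome 8 and many other genes, among them Cpne7. Of its members 0 lacked H3K27me3 in either KO list, and 7 carried H3K27ac in male and 6 in female liver. Fgfr2, whose model spans 3009069 bp, had 8, fewer than the shorter Msi2 (below).

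Msi2, an RNA-binding protein gene of stem and progenitor cells, had 13 members along 426944 bp (chr11:88152884-88579827). Of these 7 had no H3K27me3 region in KO male and 9 in KO female liver, and 5 carried H3K27ac in each. H3K27me3 covered 75.3% of Msi2 in control male, 69.2% in control female, 46.5% in KO male and 16.3% in KO female liver.

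In KO male liver each of the other genes among the 10 with most members had at most 1 member without H3K27me3, and in KO female liver Fgfr2 and Auts2 had 4 each. Cacna1c, a calcium channel gene, had 6 members, all with H3K27me3 in both KO lists, of which 3 carried H3K27ac in each. Odz4, a teneurin gene, had 6 members of which none carried H3K27ac in either KO list. Grik4, a glutamate receptor gene, had 6, of which 2 lacked H3K27me3 in female liver only. Acoxl and Auts2 had 6 each and Pacsin1 and Cldn10 had 5 each. At Cldn10, a claudin gene, all 5 kept H3K27me3, and 1 carried H3K27ac in male and 4 in female liver.

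Counted by the nearest start instead, Gli2 came first and Msi2 and Sox9 next, and Gli2 and Sox9 were named after their values were seen. Gli2, a transcription factor of Hedgehog signalling (chr1:120730709-120950196), was nearest to 10 members, 5400 to 137625 bp from its start. Of these 5 had no H3K27me3 region in KO male and 8 in KO female liver, and 5 and 6 carried H3K27ac. Sox9, a transcription factor of bile duct and cartilage cells, was nearest to 9, all of them 142441 bp or more from its start. Of these 1 and 2 had no H3K27me3 region and 4 and 2 carried H3K27ac, with 0 in both lists.

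Members were also counted near genes expressed unequally in the sexes. Gene lists that the study gives as higher in one sex were used as names only. Of these, 458 of 487 male-biased and 602 of 644 female-biased names were found among autosomal protein-coding genes of the annotation (GENCODE M1). A member lay within 10 kb of 38 genes of the male-biased list (8.30%, 6.10 to 11.2) and of 54 genes of the female-biased list (8.97%, 6.94 to 11.5). Both shares lay below the 12.9% of all genes. Among genes inside both control H3K27me3 lists a member lay near 9 of 24 male-biased genes (37.5%) and 29 of 140 female-biased genes (20.7%), beside 33.7%. The male-biased share was close to this background and rests on 24 genes. Of the 62 members near female-biased genes 19 (30.6%) had no H3K27me3 region in KO male and 29 (46.8%) in KO female liver, and 13 (21%) were CpG-rich. Of the 42 near male-biased genes 6 (14.3%) and 11 (26.2%) had no region, and 16 (38.1%) were CpG-rich. For members near any gene these shares were 10.9%, 19.1% and 41.7%. H3K27ac was at 30.6% and 38.7% of members near female-biased genes in KO male and female liver, at 19.0% in each for male-biased genes and at 27.9% and 23.3% near any gene. The study chose these genes on livers of the same mouse groups, so they are not independent evidence of a direction.

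Short motifs were searched in the middle 300 bases on both strands, as letters and not as sites. Of 12 motifs, those of liver factors were TGTTTAC for forkhead factors of the FOXA type, CAAAGTCCA for the nuclear receptor HNF4A, TTGCNNAA for factors of the C/EBP family and TTCNNNGAA for the STAT family. The others were TGANTCA for the AP-1 family, AGATAA for GATA factors, CCGGAAG for ETS factors, CATTCC for TEAD factors, CAGCTG for E-box factors, TAATTA for homeobox factors, ACAAAG for SOX factors and GGGCGG for SP and KLF factors. The SOX and HNF4A motifs share the letters CAAAG, and those of ETS, SP and KLF factors hold a CpG. The SP and KLF motif was in 28.6% of members (27.2 to 30), 4.56% of primed peaks and 11.3% of all peaks in the 4 H3K4me1 lists. Acetylated peaks inside control H3K27me3 held it in 27.1% of cases (24.7 to 29.6). Among distal peaks it was in 16.5% of members, 4.08% of primed peaks and 7.23% of all. Letters of hepatocyte factors were counted likewise, with TGTTTAC in 5.35% of members, 6.37% of primed peaks and 5.50% of all, and CAAAGTCCA in 0.988%, 1.70% and 1.17%. TTGCNNAA was in 12.9%, 16.4% and 14.2%, and TTCNNNGAA in 6.83%, 10.6% and 9.01%. Among distal peaks of these sets the shares for TGTTTAC were 7.09% (6.18 to 8.13), 6.63% (5.97 to 7.35) and 6.24%. For CAAAGTCCA they were 1.31%, 1.77% and 1.36%, and for TTGCNNAA 15.6%, 16.9% and 15.2%. For these motifs the intervals of distal members and distal primed peaks overlapped. For TTCNNNGAA the distal shares were 8.48% (7.48 to 9.60), 10.6% (9.79 to 11.5) and 9.49%. There the intervals of members and primed peaks did not overlap. Among distal members, AGATAA was in 20.4% (16.8 to 24.7) of those without H3K27me3 in both KO lists and 11.5% (10.1 to 13.1) of those with it in both. For ACAAAG the shares were 32.2% (27.8 to 36.9) and 22.5% (20.6 to 24.5). GGGCGG went the other way, with shares of 4.99% (3.25 to 7.58) and 21.3% (19.5 to 23.3). For the rest of the 12 motifs the intervals of these distal members overlapped. ACAAAG was in 36 of the 84 members without H3K27me3 and with H3K27ac in both lists (42.9%, 32.8 to 53.5). The median GC content of the distal members without and with H3K27me3 in both lists was 46.3% and 52.3%, and its part in these shares was not tested. All distal peaks in the 4 H3K4me1 lists held AGATAA in 16.0% and ACAAAG in 25.9% of cases.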

How the data were processed

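The 47 samples were mouse liver chromatin immunoprecipitated for 1 of 3 marks. Per the submitters' processing notes and the methods, the authors aligned reads with Bowtie2 2.3.2 to mm9, concatenated the reads of a group and called peaks with MACS2 2.1.1 (H3K27ac, H3K4me1) or SICER 1.1 with a window of 400 bp and a gap of 2400 bp (H3K27me3). The authors deposited 12 lists that hold positions only, with no score, count or depth, so these lists alone allow no test of a difference in signal, and absence from a list is not absence of the mark. Autosomes alone were used. Overlap meant 1 bp or more, and the counting was tested on simulated data. Shares have 95% Wilson intervals and differences Newcombe intervals (Python 3.11.15, numpy 2.4.6, matplotlib 3.10.9). Genes came from GENCODE M1 on the same build. The members and lists were chosen with earlier results of these data known. Genes named were the 10 with most members within 10 kb, the 12 nearest to members that lacked H3K27me3 and carried H3K27ac in both E1/E2-KO lists (ordered by the narrower H3K27ac peak), and up to 4 per gene list. Alternatives varied the overlap, the distances, the start list, the H3K27ac lists and the window. At least 1 gene that this rule names is not reported here.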

Additional observations from a re-analysis of the deposited data

How the results depend on the processing

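Of 131 values recomputed under an alternative, 92 stayed within counting error, or within 1.5 times for the number of members (2666 to 3898), and 39 moved, none in sign. The interval of the male difference in H3K27ac by H3K27me3 status included 0 without control H3K27ac within 1 kb (2.86), with distal members (1.35), from the female list (3.97), within 2400 bp (3.75), at 50% of the member (0.951) and with the widest peaks (1.04). With only members as wide as the median or wider (1925), the share without H3K27me3 was 21.9% in female liver, the share with H3K27ac 35.4% in male and 29.4% in female liver, the female CpG and position differences 31.3 and 27.1 points, the share within 1 kb of a start 35.3%, the CpG-rich share 38.6% and the share of genes 7.53%. With distal members only, the shares without H3K27me3 were 17.7% and 31.1%, with H3K27ac 31.6% and 26.5%, the male CpG difference 19.2 points, the CpG-rich share 15.5% and the share of genes 7.09%. With 50% of the peak covered in the other H3K4me1 lists, these were 12.3% and 22.3% without H3K27me3, 33.1% within 1 kb of a start, 35.0% CpG-rich and 9.82% of genes. At 2 kb or more from the border they were 12% and 21.4% without H3K27me3, 34.2% CpG-rich and 12% of genes. Counting a region within 2400 bp as kept gave 11.6% and 20.6%, CpG differences of 15.0 and 24.6 points and a female position difference of 20.1 points. Requiring 50% of a member inside H3K27ac gave 13.4% and 10.4%, and a female difference by H3K27me3 status of 4.29 points. H3K27ac within 1 kb gave 37.5% and 33.2%, and the widest peaks only 10.1% in male liver. Without control H3K27ac within 1 kb the share of genes was 11.5%, and within 50 kb of the gene 26.4%. Calling 12 or more CpG rich, chosen after seeing the data, gave 40.0%. The cause of these shifts was not tested.

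Leaving out 1 liver at a time could not be run, since each list was made from pooled livers. No paired analysis was possible because no list carries replicates. Depth is unknown and limits every statement on an absent peak.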
